A study of Mus musculus with 9 samples.

Results

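The 681 ZEB1 peaks described here lay at the ends of genes for long noncoding RNAs (lncRNAs), away from protein-coding genes. They were chosen by position alone. The centre of each peak was no farther than 1 kb from an end of a gene that the RefSeq table of GRCm38.p6 gives the biotype lncRNA, and more than 5 kb from the start and end of every protein-coding gene. They made up 2.88% of the 23623 peaks of the authors' consensus list and were assigned to 607 of the 12727 lncRNA genes in the table. The table held no gene of biotype ncRNA. ZEB1 occupancy had been mapped by CUT&RUN, in which an antibody guides a nuclease that cuts DNA out around the bound protein, in PB3 mouse breast cancer cells labelled negative for the oestrogen receptor, the progesterone receptor and Her2. Cells given 300 nM eribulin for 24, 48 or 72 h, with the cell line label PB3_ERI, were set against untreated cells with the label PB3-Parental, with 2 libraries in each of these 4 groups. The line label and the drug went together in every library, so their parts in a difference cannot be told apart. An IgG library of untreated PB3-Parental cells had served the authors as the background for peak calling and has no column of counts.

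An lncRNA gene is transcribed like a protein-coding gene, from a promoter with its own transcription factor sites, but its RNA is not translated. Some lncRNAs act on chromatin or on neighbouring genes, some serve as the precursors of microRNAs or small nucleolar RNAs, and for most no function is known. The zinc finger protein ZEB1 binds E-box sequences and represses epithelial genes during the epithelial-mesenchymal transition; it can also be found at sites of AP-1 and TEAD factors. Eribulin is a microtubule inhibitor used against metastatic breast cancer.

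Most of the genes carried provisional names. Symbols starting with Gm were given to 509 of the 681 peaks and symbols ending in Rik to 130. A single peak was assigned to 538 genes, a pair of peaks to 64 genes and 3 peaks to 5 genes. The centre fell inside the lncRNA gene at 354 peaks. A RefSeq start site was known for the gene of 549 peaks; it lay within 1 kb of the centre at 405 of them and within 250 bp at 196. The nearest protein-coding boundary was a median of 30.7 kb away. In 195 peaks (28.6%) the centre nevertheless lay inside the body of a protein-coding gene, a smaller share than the 49.4% among the 13394 other peaks over 5 kb from protein-coding boundaries and over 1 kb from lncRNA boundaries, called distal peaks below. The biotype is RefSeq's own: 1 peak was assigned to Trmt61b, a name known for a mitochondrial RNA methyltransferase, which this table lists as lncRNA. The peaks were 7 to 1767 bp wide (median 370 bp, against 329 bp for distal peaks and 392 bp for the 6690 peaks within 1 kb of a protein-coding boundary).

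The RefSeq promoter window of the peak's own gene, from 250 bases before to 50 bases after the start, was covered by the peak over at least 150 of its 300 bases in 169 cases. The windows below are RefSeq sequences of GRCm38.p6, read along the strand of the gene, with capitals marking matches to the ZEB1 E-box CACCTG, the AP-1 site TGANTCA and the TEAD site GGAATG on either strand. The first 3 belong to peaks whose change with eribulin over the mean of the 3 times was called under all 16 alternatives, and whose level was at least the median of tested peaks. They show a promoter with 1 E-box and 3 TEAD matches, of which the E-box and the first TEAD match share 1 base; a promoter with a single TEAD match; and a promoter with none of the 3 motifs, beside a small nuclear RNA gene.
Platr22 (chr1:136695961-136696260, plus strand): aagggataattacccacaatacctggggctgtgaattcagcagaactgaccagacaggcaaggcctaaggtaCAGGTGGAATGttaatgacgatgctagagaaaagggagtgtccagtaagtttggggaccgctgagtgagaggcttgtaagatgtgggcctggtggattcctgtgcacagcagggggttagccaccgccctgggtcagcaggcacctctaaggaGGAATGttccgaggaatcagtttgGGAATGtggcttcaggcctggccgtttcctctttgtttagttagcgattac
Gm12915 (chr4:124751305-124751604, minus strand): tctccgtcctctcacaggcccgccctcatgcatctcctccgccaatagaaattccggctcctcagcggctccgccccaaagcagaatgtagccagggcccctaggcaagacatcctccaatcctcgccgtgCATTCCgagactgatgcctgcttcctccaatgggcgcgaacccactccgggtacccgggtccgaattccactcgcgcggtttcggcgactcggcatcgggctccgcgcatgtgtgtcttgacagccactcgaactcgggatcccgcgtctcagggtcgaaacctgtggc
D230017M19Rik (chr1:72243743-72244042, plus strand): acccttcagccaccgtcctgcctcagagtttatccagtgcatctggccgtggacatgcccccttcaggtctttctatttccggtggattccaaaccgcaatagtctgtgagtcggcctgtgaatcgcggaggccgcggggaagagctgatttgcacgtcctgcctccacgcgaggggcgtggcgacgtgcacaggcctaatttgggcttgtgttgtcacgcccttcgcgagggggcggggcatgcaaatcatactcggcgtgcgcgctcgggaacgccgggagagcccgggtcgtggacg
The peak covered the whole Platr22 window, the first 161 bases of the Gm12915 window, its TEAD match included, and the last 160 bases of the D230017M19Rik window. The next 3 are the windows with an AP-1 match that lay wholly inside the peaks with the highest mean CPM.
Gm20744 (chr7:82070137-82070436, plus strand): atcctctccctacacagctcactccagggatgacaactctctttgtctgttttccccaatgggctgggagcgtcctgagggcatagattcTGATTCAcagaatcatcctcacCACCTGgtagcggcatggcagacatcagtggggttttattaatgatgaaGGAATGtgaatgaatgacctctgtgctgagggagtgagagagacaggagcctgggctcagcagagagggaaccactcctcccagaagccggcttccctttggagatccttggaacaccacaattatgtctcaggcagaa
Gm32861 (chr7:110288349-110288648, minus strand): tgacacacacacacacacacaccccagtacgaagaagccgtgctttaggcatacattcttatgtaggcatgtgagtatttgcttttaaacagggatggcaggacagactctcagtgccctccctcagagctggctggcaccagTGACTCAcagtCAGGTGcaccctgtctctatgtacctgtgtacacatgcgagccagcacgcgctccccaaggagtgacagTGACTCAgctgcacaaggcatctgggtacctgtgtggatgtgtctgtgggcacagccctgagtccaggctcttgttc
Gm32287 (chr2:167777365-167777664, minus strand): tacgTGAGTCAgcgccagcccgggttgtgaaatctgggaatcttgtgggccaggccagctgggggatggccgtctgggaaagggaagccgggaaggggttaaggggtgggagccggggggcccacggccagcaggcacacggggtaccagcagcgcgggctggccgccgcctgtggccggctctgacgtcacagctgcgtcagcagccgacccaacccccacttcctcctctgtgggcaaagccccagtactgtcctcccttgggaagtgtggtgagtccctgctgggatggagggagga
The Gm20744 window held 1 match of each motif, the Gm32861 window 2 AP-1 matches and 1 E-box, and the Gm32287 window 1 AP-1 match. A match is only a run of letters and was not tested as a binding site.

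AP-1 matches were frequent in these windows. TGANTCA was found in 53 of the 169 windows (31.4%). It was found in 28 of 484 windows (5.79%) of other lncRNA genes that a consensus peak covered by at least 150 bases, in 5.29% of 5141 such windows of protein-coding genes, in 9.31% of all 11588 lncRNA windows and in 7.81% of all 32851 windows in the table. The ZEB1 E-box did not stand out in this way: it was found in 33 windows (19.5%), against 18.2% of the 484 other covered lncRNA windows and 20.2% of all windows. The TEAD site was found in 31 windows (18.3%), against 9.09% of the 484 and 14.7% of all windows. The shares are descriptions with no test, and base composition was not taken into account. The 484 other lncRNA windows were not matched to the 169 for distance from protein-coding genes, which the choice of the set requires to exceed 5 kb. Distal peaks were not scanned, so whether the AP-1 share is particular to lncRNA gene ends was not tested. Of the 52 tested peaks with an AP-1 match in the window, 2 were higher and 7 lower with eribulin over the mean of the 3 times, and their median log2 fold change was -0.23; of all 21192 tested peaks, 8.27% were higher and 8.53% lower. Of the 113 without a match, 15 were higher and 12 lower, and their median was 0.01. Of the 31 tested peaks with an E-box, 5 were higher and 3 lower.

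**Figure D1:**
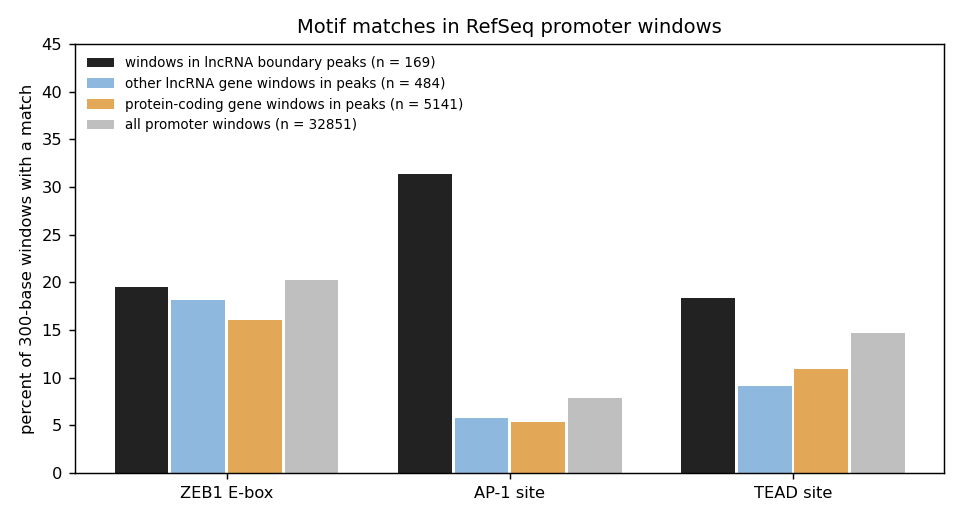
Percent of 300-base RefSeq promoter windows with a match to each motif on either strand, for the 169 windows with at least 150 bases inside an lncRNA boundary peak, for covered windows of other lncRNA genes and of protein-coding genes, and for all windows. The AP-1 share is 31.4% in the first set and between 5.29% and 7.81% in the other 3 sets, while the E-box shares lie between 16.03% and 20.2%.

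ZEB1 occupancy at lncRNA gene ends was of ordinary height. It was measured in CPM, the count of a peak scaled to the normalised total in the tested peaks of its library. The libraries held between 326944 and 765015 counts in the consensus peaks. Of the 681 peaks, 609 at 557 genes passed the filter on low counts; the other 72 had 6 to 66 counts summed over the 8 libraries (median 40) and got no test. The median over the tested peaks was 37.4 CPM, against 34.1 CPM for distal peaks and 38.8 CPM for peaks at protein-coding boundaries. Per kilobase of peak it was 101 CPM, against 98.7 CPM per kilobase for all tested peaks. Together the peaks took between 2.96% and 3.26% of the counts of a library, with the lowest share in 72 h replicate 2 and the highest in control replicate 2. All values are relative to the total, since no spike-in was used, and more cells with ZEB1 at a site cannot be told apart from more ZEB1 at the site in each cell.

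In the authors' peak lists as deposited, 1 per group, fewer of the peaks were found at later times. The control list held 546 of the 681 (80.2%), the 24 h list 449 (65.9%), the 48 h list 416 (61.1%) and the 72 h list 357 (52.4%). The shares over all 23623 consensus peaks were 78.7%, 63.0%, 60.2% and 51.6% in the same order of lists. In all 4 lists were 256 of the lncRNA boundary peaks (37.6%), against 34.7% of all consensus peaks and 31.4% of distal peaks. In the control list alone were 122 (17.9%), against 18.98% of all and 22.2% of distal peaks. The eribulin lists, without the control list, shared 16 peaks (2.35%, against 2.69% of all). There is 1 list per group, so these shares have no replicate check.

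The share of lncRNA boundary peaks that changed with eribulin was close to that of all peaks. At 24 h, 39 of the 609 tested peaks were higher than in control and 27 lower at an edgeR adjusted p below 0.05 (6.4% and 4.43%, against 6.44% and 4.61% of all 21192 tested peaks). At 48 h, 39 were higher and 43 lower (6.4% and 7.06%, against 6.09% and 5.41% of all). At 72 h, 39 were higher and 41 lower (6.4% and 6.73%, against 6.84% and 5.74% of all, or 12.6% in either direction). Over the mean of the 3 times, 50 were higher and 61 lower (8.21% and 10%, against 8.27% and 8.53% of all). Among the called peaks the median log2 fold change over the mean was 0.94 for those that were higher and -0.76 for those that were lower. Eribulin and control libraries did not overlap in 37 of the 50 and in 51 of the 61. A call itself favours such separation, and the same count was not taken over all called peaks. Of the 609, 11 were higher at all 3 times and 10 lower at all 3 times, against 373 and 316 of all 21192 tested peaks. No peak of the 609 was called in opposite directions at different times. These counts rest on control replicate 2 more than on any other library: without it, 21 peaks in place of 111 were called over the mean, 15 in place of 66 at 24 h, 21 in place of 82 at 48 h and 25 in place of 80 at 72 h. Without control replicate 1, 66 peaks were called over the mean. DESeq2 called 12 over the mean and gave no adjusted p for 190 of the 609. These drops were not set against those of all tested peaks. The labels do not say that the libraries of a group came from separate cultures, so the p-values rest on a spread that may be technical. The pairs of control, 24 h and 72 h differed by no more than counting noise (chi-square per degree of freedom 0.931, 0.953 and 0.965, against 1.06 at 48 h). Counting each of these pairs as 1 sample is 1 of the 16 alternatives. It left 5 libraries and 1 residual degree of freedom, with the spread taken from the 48 h pair alone. That fit therefore cannot tell whether the calls would hold with separate cultures.

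**Figure D2:**
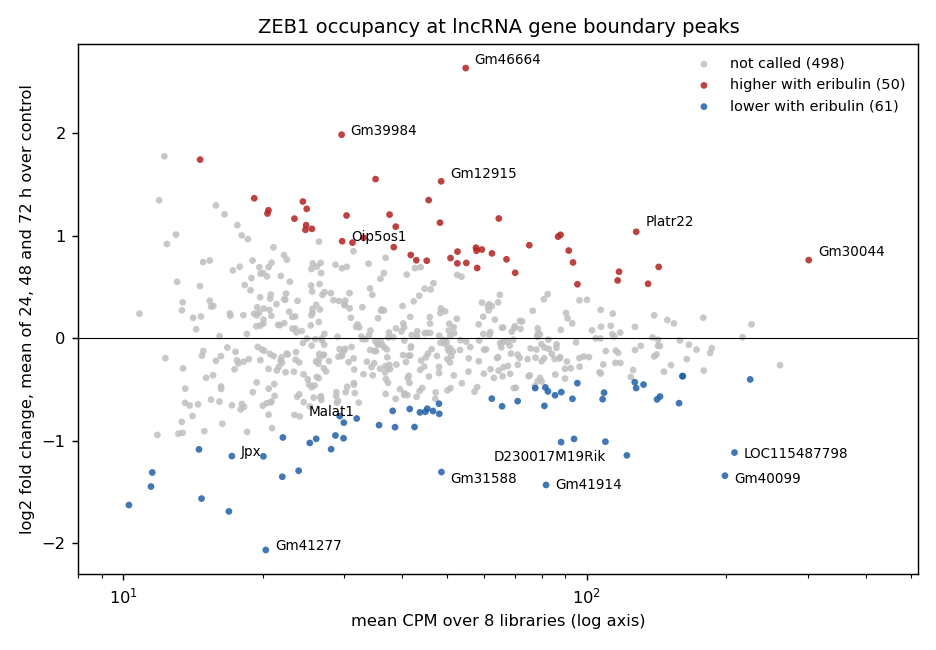
Each point is 1 of the 609 tested peaks, with its mean CPM over 8 libraries on a log axis and its log2 fold change, mean of 24, 48 and 72 h over control. Red and blue mark the 50 peaks called higher and the 61 called lower; Gm46664, at 2.63, is the highest point and Gm41277, at -2.06, the lowest.

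The peaks stood between the other classes in the direction of change at 72 h. Distal peaks were called higher in 3.26% and lower in 8.27%, and peaks at protein-coding boundaries higher in 14.2% and lower in 0.929%. The median log2 fold change at 72 h was -0.08 for lncRNA boundary peaks, -0.20 for distal peaks and 0.37 for peaks at protein-coding boundaries. The share of lncRNA boundary peaks called higher was 6.4% at each of the 3 times. The classes were not tested against each other.

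**Figure D3:**
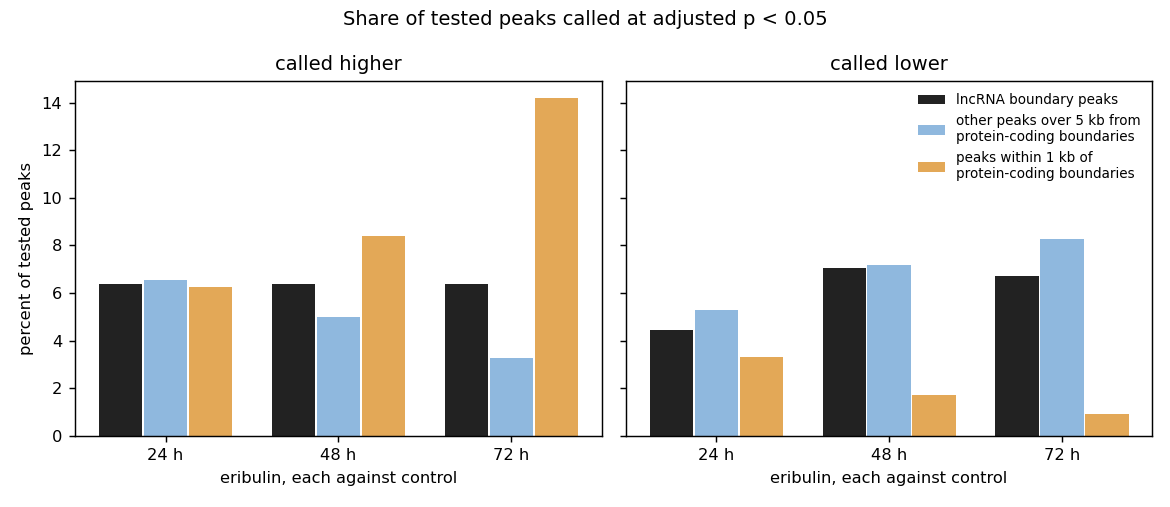
Percent of tested peaks called higher (left) and lower (right) at 24, 48 and 72 h of eribulin, each against control, for lncRNA boundary peaks, distal peaks and peaks within 1 kb of a protein-coding boundary. The black bars of lncRNA boundary peaks stay at 6.4% on the left, while the bars of protein-coding boundaries reach 14.2% at 72 h.

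The rises and falls ranked here are those of called peaks at or above the median level of all tested peaks (35.5 CPM) whose eribulin and control libraries did not overlap. The largest rise over the mean was at Gm46664, an lncRNA gene on chromosome 19. Its peak at chr19:36236637-36237053, inside the gene and 866 bp from its nearer end, had 13.8 and 9.17 CPM in the control libraries, 85.3 and 81.9 CPM at 24 h, 59.5 and 78.7 CPM at 48 h and 60.1 and 50.2 CPM at 72 h. All 6 eribulin libraries lay far above both control libraries (log2 fold change 2.63, standard error 0.33, adjusted p = 6.05e-10). The authors' control list did not hold it and all 3 eribulin lists did, with 12.2-fold enrichment over IgG at 24 h in the authors' deposited table. Gm12915 came next, with a peak upstream of the start of the lncRNA gene, inside the protein-coding gene Inpp5b (chr4:124751444-124751829). It had 19.3 and 19.9 CPM in the control libraries, 47.7 and 46.4 CPM at 24 h, 52.9 and 51.3 CPM at 48 h and 78.6 and 72.1 CPM at 72 h. The groups did not overlap (log2 fold change 1.53, standard error 0.28, adjusted p = 3.95e-05), and of the 4 lists only the control list lacked this peak. Both kept their call over the mean under all 16 alternatives; without control replicate 2, Gm12915 was not called at 24 h (adjusted p = 0.148) or at 48 h (adjusted p = 0.0905).

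Platr22, named as an RNA associated with pluripotency in mouse embryonic stem cells, had the strongest peak among the 10 largest rises. The peak at chr1:136695873-136696697 spans the start of the gene and the window printed above. It had 71.5 and 70.3 CPM in the control libraries, 165 and 156 CPM at 24 h, 139 and 164 CPM at 48 h and 122 and 135 CPM at 72 h. Both control libraries lay below all 6 eribulin libraries (log2 fold change 1.04, standard error 0.17, adjusted p = 2.77e-06). Rab10os, transcribed opposite to the vesicle transport gene Rab10, had a peak 826 bp from its start at chr12:3234415-3235515. It had 30.3 and 62.7 CPM in the control libraries, 113 and 115 CPM at 24 h, 96.6 and 97.5 CPM at 48 h and 122 and 65.9 CPM at 72 h, with control replicate 2 just below 72 h replicate 2, the lowest of the eribulin libraries (log2 fold change 1.01, standard error 0.20, adjusted p = 1.77e-04; adjusted p = 0.0594 by DESeq2). Leaving out control replicate 2 gave 1.76, and leaving out control replicate 1 gave 0.70.

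The other 6 of the 10 largest rises rested more on single libraries. 2310034G01Rik averaged 53.6 ± 13.1 CPM over the 6 eribulin libraries and 21.5 ± 4.53 CPM over the 2 control libraries (SD), and its log2 fold change was 1.34 (adjusted p = 4.46e-04). A630001O12Rik had a peak 935 bp from its start with 75.1 ± 13.8 CPM over the 6 eribulin libraries and 33.3 ± 0.446 CPM over the 2 control libraries (SD) and a log2 fold change of 1.17 (adjusted p = 1.82e-04). 5430416N02Rik averaged 98.6 ± 21.0 CPM over the 6 eribulin libraries and 51.0 ± 9.49 CPM over the 2 control libraries (SD), with a log2 fold change of 0.99 (adjusted p = 1.77e-04). These 3 were called at each of the 3 times. Gm52341 had a log2 fold change of 1.20 (adjusted p = 0.0034), Gm30701 of 1.13 (adjusted p = 0.00207) and Gm30582 of 1.09 (adjusted p = 0.00598). None of the 6 was called without control replicate 2, where adjusted p was 0.142 for 2310034G01Rik, 0.0525 for A630001O12Rik, 0.136 for 5430416N02Rik, 0.0612 for Gm52341, 0.153 for Gm30701 and 0.304 for Gm30582. Gm52341 was not called without control replicate 1 either (adjusted p = 0.0607), nor Gm30701 without 72 h replicate 1 (adjusted p = 0.0515). By DESeq2 their adjusted p lay between 0.0611 and 0.218.

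Of the 10 largest falls, 8 kept their call over the mean under all 16 alternatives, against 3 of the 10 largest rises. The falls and rises were not matched for level, and the same count was not taken over all called peaks. Gm41914, inside the protein-coding gene Agap1, had the largest fall (chr1:89555119-89555835). It had 129 and 169.7 CPM in the control libraries, 81.9 and 90.0 CPM at 24 h, 54.2 and 51.3 CPM at 48 h and 55.5 and 22.0 CPM at 72 h, with every eribulin library below both controls (log2 fold change -1.43, standard error 0.17, adjusted p = 4.04e-11). Gm40099 had a peak of 1767 bp, the widest of all 681, at chr3:96458702-96460468. It had 374 and 345 CPM in the control libraries, 205 and 184 CPM at 24 h, 116 and 125 CPM at 48 h and 116 and 125 CPM at 72 h. Both control libraries stood far above the 6 eribulin libraries (log2 fold change -1.34, standard error 0.11, adjusted p = 1.77e-18); a tRNA gene lies 374 bp from its centre. LOC115487798, inside the germ cell gene Tex14, was nearly as strong (chr11:87442965-87444240). It had 338 and 350.1 CPM in the control libraries, 218 and 206 CPM at 24 h, 148 and 159 CPM at 48 h and 132 and 116 CPM at 72 h, without overlap (log2 fold change -1.11, standard error 0.11, adjusted p = 4.40e-14). Its centre is 151 bp from Rnu3b1, a gene of the U3 RNA, which the table lists as small nuclear RNA. D230017M19Rik, whose window with no motif match is printed above, had 195 and 211 CPM in the control libraries, 114 and 126 CPM at 24 h, 84.7 and 71.9 CPM at 48 h and 64.7 and 109.8 CPM at 72 h. Its 6 eribulin libraries were below both controls (log2 fold change -1.14, standard error 0.14, adjusted p = 2.17e-10); another small nuclear RNA gene, Gm24497, is 143 bp from its centre (chr1:72243883-72245209).

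Gm31588 fell late. Its peak at chr9:92228992-92229511, 16.7 kb from the phospholipid scramblase family gene Plscr5, had 79.8 and 76.4 CPM in the control libraries, 73.3 and 61.4 CPM at 24 h, 33.1 and 35.9 CPM at 48 h and 6.93 and 22.0 CPM at 72 h. The 24 h libraries lay just below control and the 72 h libraries lowest of all 8. Its log2 fold change was -0.22 at 24 h (adjusted p = 0.574), -1.17 at 48 h (adjusted p = 9.66e-04) and -2.52 at 72 h (adjusted p = 1.06e-06), and 72 h was lower than 24 h by 2.31 on the log2 scale (adjusted p = 7.36e-05). Without 72 h replicate 1 this last difference was -1.61 (adjusted p = 0.0568).

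Gm41404 carried the only pair of peaks at 1 gene that were both lower. The gene lies 10.1 kb from Krt18, an epithelial keratin gene, as measured from the first of its peaks. That peak, at chr15:102017908-102018360, had 132 and 159 CPM in the control libraries, 102 and 101 CPM at 24 h, 84.7 and 59.9 CPM at 48 h and 62.4 and 50.2 CPM at 72 h (log2 fold change -0.98, standard error 0.16, adjusted p = 1.64e-06). The groups did not overlap, and the peak stayed called without either control library. The other, at chr15:102016122-102017301, had 228 and 167 CPM in the control libraries, 181 and 199 CPM at 24 h, 152 and 132 CPM at 48 h and 122 and 107 CPM at 72 h, with overlap between the groups at 24 h (log2 fold change -0.37, standard error 0.13, adjusted p = 0.0424; adjusted p = 0.519 without control replicate 1). Gm41405, on the other side of Krt18 and among the strongest peaks, was not called over the mean (log2 fold change 0.01, adjusted p = 0.971).

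The remaining 4 of the 10 largest falls included 2 that held and 2 that did not. They were Gm33210, Gm40704, Gm41189 and 1700012H19Rik. Gm33210 averaged 70.0 ± 16.4 CPM over the 6 eribulin libraries and 142 ± 12.9 CPM over the 2 control libraries (SD) (log2 fold change -1.01, adjusted p = 1.48e-06). Gm40704, 44980 bp from the collagen gene Col18a1, averaged 87.9 ± 16.1 CPM over the 6 eribulin libraries and 175 ± 2.88 CPM over the 2 control libraries (SD) (log2 fold change -1.01, adjusted p = 6.71e-08). These 2 kept the call over the mean under all 16 alternatives, as did Gm41914, Gm40099, LOC115487798, D230017M19Rik, Gm31588 and the first peak of Gm41404. Gm41189 had 41.3 and 70.3 CPM in the control libraries, 30.7 and 28.6 CPM at 24 h, 37.0 and 30.8 CPM at 48 h and 32.4 and 37.6 CPM at 72 h, and its log2 fold change of -0.87 (adjusted p = 0.00548) became -0.33 (adjusted p = 0.707) without control replicate 2, the higher control. 1700012H19Rik, 36.5 kb from Sox9, a transcription factor gene of epithelial progenitors, averaged 34.8 ± 8.83 CPM over the 6 eribulin libraries and 65.7 ± 4.30 CPM over the 2 control libraries (SD); its log2 fold change of -0.87 (adjusted p = 0.00418) was not called without control replicate 2 (adjusted p = 0.0958). 5430425K12Rik was among the 3 largest falls at 24 h alone, with a log2 fold change there of -0.94 (adjusted p = 0.0241, and 0.32 without control replicate 2, 0.0582 without 24 h replicate 1 and 0.206 without 24 h replicate 2).

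**Figure D4:**
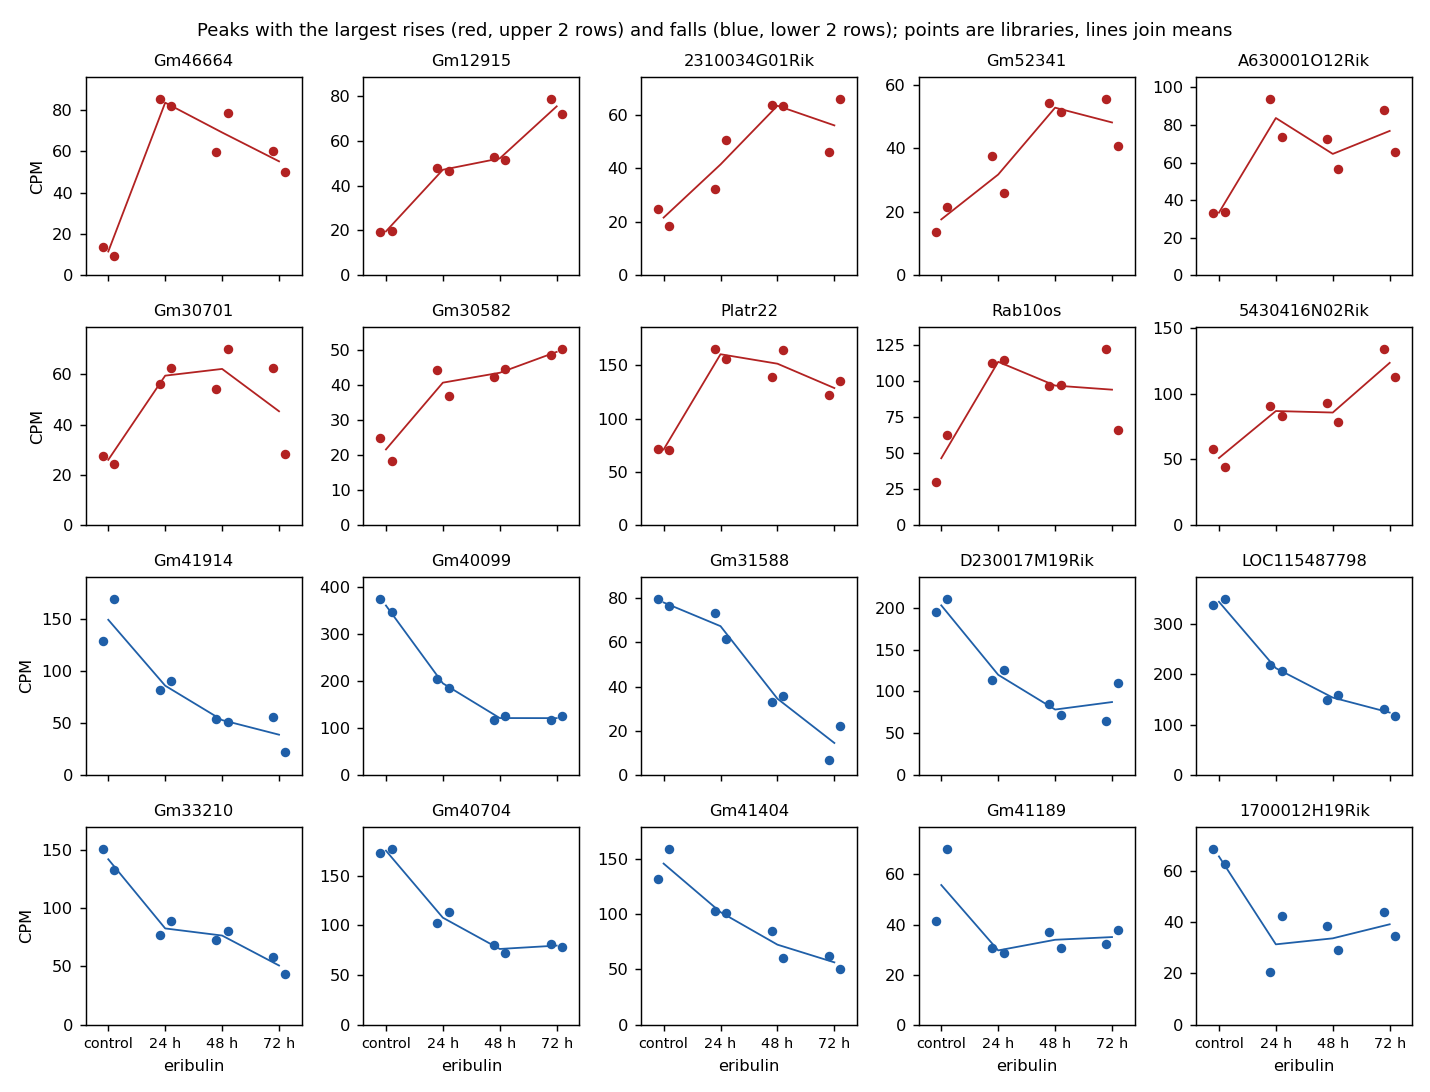
CPM in each of the 8 libraries (points) and group means (lines) in control and after 24, 48 and 72 h of eribulin, for the 10 largest rises (red) and the 10 largest falls (blue) over the mean of the 3 times. Gm46664 lies between 50.2 and 85.3 CPM in the eribulin libraries and at 13.8 and 9.17 CPM in control, and Gm40099 falls furthest in CPM.

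Between 72 h and 24 h, 10 of the 609 peaks were higher at 72 h and 25 lower (1.64% and 4.11%, against 2.32% and 2.39% of all tested peaks, or 4.71% in either direction). Within the limits on level and overlap given above, the largest falls besides Gm31588 were at 4732419C18Rik and Gm12415. 4732419C18Rik had 66.0 and 73.4 CPM in the control libraries, 75.03 and 80.5 CPM at 24 h, 39.7 and 58.2 CPM at 48 h and 27.7 and 37.6 CPM at 72 h, so that 24 h lay close to control and 72 h below both (72 h minus 24 h -1.28 on the log2 scale, adjusted p = 0.00475). Gm12415, 65.4 kb from Bnc2, had 82.5 and 90.2 CPM in the control libraries, 80.1 and 99.6 CPM at 24 h, 70.1 and 97.5 CPM at 48 h and 50.8 and 28.2 CPM at 72 h (72 h minus 24 h -1.14, adjusted p = 0.00688). In both the 72 h libraries were the lowest of all. The 3 largest rises within the same limits were Gm46751 (72 h minus 24 h 1.18, adjusted p = 0.0127), Gm9530 (1.15, adjusted p = 0.0253) and Gm5464 (0.95, adjusted p = 0.0305). None of these 3 was called against control at any time; Gm9530, for example, had 49.5 and 36.7 CPM in the control libraries, 30.7 and 20.5 CPM at 24 h, 59.5 and 51.3 CPM at 48 h and 50.8 and 62.7 CPM at 72 h, lowest at 24 h. Single libraries decided these calls. Adjusted p was 0.154 without 72 h replicate 1 for 4732419C18Rik. It was 0.0967 without 24 h replicate 2 and 0.159 without 72 h replicate 2 for Gm12415. It was 0.146 without 24 h replicate 2 and 0.236 without 72 h replicate 1 for Gm46751, 0.234 without 24 h replicate 2, 0.0882 without 72 h replicate 1 and 0.183 without 72 h replicate 2 for Gm9530, and 0.0841 without 24 h replicate 1, 0.165 without 24 h replicate 2, 0.296 without 72 h replicate 1 and 0.088 without 72 h replicate 2 for Gm5464.

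Of the 8 strongest peaks, LOC115487798 and Gm40099 were also among the 10 largest falls. Gm30044, 5.46 kb from the deubiquitinase gene Otud7b, had the highest level of all 681, 301 CPM on average and 274 CPM per kilobase (chr3:96098500-96099599). It had 198 and 193 CPM in the control libraries, 448 and 398 CPM at 24 h, 258 and 339 CPM at 48 h and 289 and 289 CPM at 72 h. All eribulin libraries were above control, with the 24 h libraries highest (log2 fold change 0.76, standard error 0.12, adjusted p = 1.64e-06), and 72 h was lower than 24 h by 0.55 on the log2 scale (adjusted p = 0.00777, and 0.0854 without 24 h replicate 1, 0.0816 without 72 h replicate 1 and 0.069 without 72 h replicate 2). Next by mean CPM were the peak at the start of A630001O12Rik (261 CPM), Gm40858 (227 CPM), Gm20744 (225 CPM), Gm41405 (217 CPM), LOC115487798 (208 CPM), Gm40099 (199 CPM) and Gm38560 (186 CPM). Gm40858, 31.2 kb from Sox4, and Gm38560, inside Txnrd1, were not called over the mean (adjusted p = 0.481 and 0.633). Gm20744, whose window with all 3 motifs is printed above, had 250.3 and 290.5 CPM in the control libraries, 283 and 207 CPM at 24 h, 209 and 204 CPM at 48 h and 180.3 and 179 CPM at 72 h; its libraries overlapped between groups, and its log2 fold change of -0.40 (adjusted p = 0.0103) became -0.26 (adjusted p = 0.435) without control replicate 2. The 3 peaks at A630001O12Rik differed: the one 935 bp upstream rose, as above, while the one at the start had 297 and 298 CPM in the control libraries, 293 and 247 CPM at 24 h, 261 and 253 CPM at 48 h and 219.6 and 223 CPM at 72 h (log2 fold change over the mean -0.26, adjusted p = 0.0872) and the one past the far end a log2 fold change of -0.22 (adjusted p = 0.415). At 72 h the start peak was called lower (log2 fold change -0.43, adjusted p = 0.043) and the upstream peak higher (1.23, adjusted p = 0.00325). The start peak lost that call without any 1 of the 4 libraries compared, with adjusted p of 0.0862 and 0.204 without control replicates 1 and 2, and 0.219 and 0.135 without 72 h replicates 1 and 2. The upstream peak lost it without control replicate 2 (adjusted p = 0.0686) or 72 h replicate 1 (adjusted p = 0.155). Per kilobase the highest values came from very narrow peaks, Gm19461 with 7 bp, 5830416I19Rik with 14 bp and Gm16141 with 48 bp, where a few counts set the level; their mean levels were 9.32, 6.81 and 17.0 CPM.

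The lists of well-studied lncRNA genes accounted for few of the 681 peaks, and most of these were not called. Of all 12727 lncRNA genes in the table, 607 had a peak in the set. Whether listed genes had one more or less often than other lncRNA genes was not tested. The numbers are held down by the distance set from protein-coding genes. Of the 11 nuclear architecture RNA genes in the table, 5 had a consensus peak within 1 kb and 3 had one in the set. All 3 peaks were tested, with none higher and 1 lower over the mean (against 8.27% and 8.53% of all tested peaks). Malat1, an abundant RNA of nuclear speckles, had 44.0 and 27.5 CPM in the control libraries, 27.3 and 24.6 CPM at 24 h, 14.6 and 17.1 CPM at 48 h and 18.5 and 18.8 CPM at 72 h at its start (chr19:5802381-5802852). The control libraries were the 2 highest of 8, control replicate 2 by a small margin, and Malat1 did not pass over the mean (log2 fold change -0.76, standard error 0.31, adjusted p = 0.0756); it passed at 48 h alone (adjusted p = 0.0485), and not without any 1 of the 4 libraries compared there (adjusted p from 0.0786 to 0.299). Jpx, which activates Xist in mouse cells, had 38.5 and 22.9 CPM in the control libraries, 11.9 and 15.0 CPM at 24 h, 18.5 and 8.55 CPM at 48 h and 9.25 and 12.5 CPM at 72 h. All 6 eribulin libraries were below both controls (log2 fold change -1.15, standard error 0.36, adjusted p = 0.0187), but not past the threshold without control replicate 1 (-0.85, adjusted p = 0.258) or without control replicate 2 (-1.57, adjusted p = 0.052). Chaserr, which restrains its neighbour Chd2 in mouse, had 116 and 110.1 CPM in the control libraries, 80.1 and 95.5 CPM at 24 h, 108 and 78.7 CPM at 48 h and 99.4 and 84.7 CPM at 72 h, with no call (log2 fold change -0.28, standard error 0.16, adjusted p = 0.237).

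Of the imprinted and allele-silencing RNAs, Airn, which silences Igf2r on the paternal chromosome, and Mirg, of the imprinted Dlk1-Dio3 region, had a tested peak each and neither passed (adjusted p = 0.5 and 0.9). Of the 21 small nucleolar RNA host genes, 11 had a consensus peak within 1 kb; the peaks of Snhg5, Snhg15 and Dancr were far enough from protein-coding genes to count here, and none passed over the mean (log2 fold change -0.53, 0.21 and -0.09). Snhg15 had 22.0 and 16.8 CPM in the control libraries, 17.1 and 13.6 CPM at 24 h, 15.9 and 18.8 CPM at 48 h and 27.7 and 53.3 CPM at 72 h; 72 h was higher than 24 h by 1.34 on the log2 scale (adjusted p = 0.0363), and adjusted p was 0.0862 without 24 h replicate 1, 0.196 without 24 h replicate 2 and 0.433 without 72 h replicate 2. The microRNA host genes Mir22hg, with a pair of peaks, and Dleu2 gave 3 tested peaks and no call; the stronger Mir22hg peak had 99.0 and 138 CPM in the control libraries, 98.9 and 98.2 CPM at 24 h, 118 and 111 CPM at 48 h and 118 and 144 CPM at 72 h. The groups overlapped fully.

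Of the RNAs linked to the epithelial-mesenchymal transition or cancer, 10 of the 38 genes in the table had a consensus peak within 1 kb and 5 had one in the set. Of these 7 peaks, 6 were tested, 1 was higher and none lower (against 8.27% and 8.53% of all tested peaks). Mir22hg and Snhg15 count here as well. The peak that was higher was at Oip5os1, also called Cyrano, which directs the decay of a microRNA. It had 13.8 and 19.9 CPM in the control libraries, 29.0 and 40.9 CPM at 24 h, 41.0 and 39.3 CPM at 48 h and 34.7 and 18.8 CPM at 72 h at its start (chr2:119594151-119594616). Both controls were among the 3 lowest libraries, with 72 h replicate 2 between them (log2 fold change 0.94, standard error 0.33, adjusted p = 0.0372; adjusted p = 0.211 without control replicate 1, 0.179 without control replicate 2, 0.0884 without 24 h replicate 2 and 0.187 without 72 h replicate 1). The Zeb2os peak, inside the gene of ZEB2, a relative of ZEB1, had 7.73 CPM on average and got no test. Morrbid, which controls the apoptosis gene Bcl2l11 in mouse myeloid cells, had a pair of peaks with no call (adjusted p = 0.908 and 0.41). No peak of the set belonged to any of the 14 small structured RNA genes of the lists. The lists are short and their counts say nothing of the class as a whole.

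**Figure D5:**
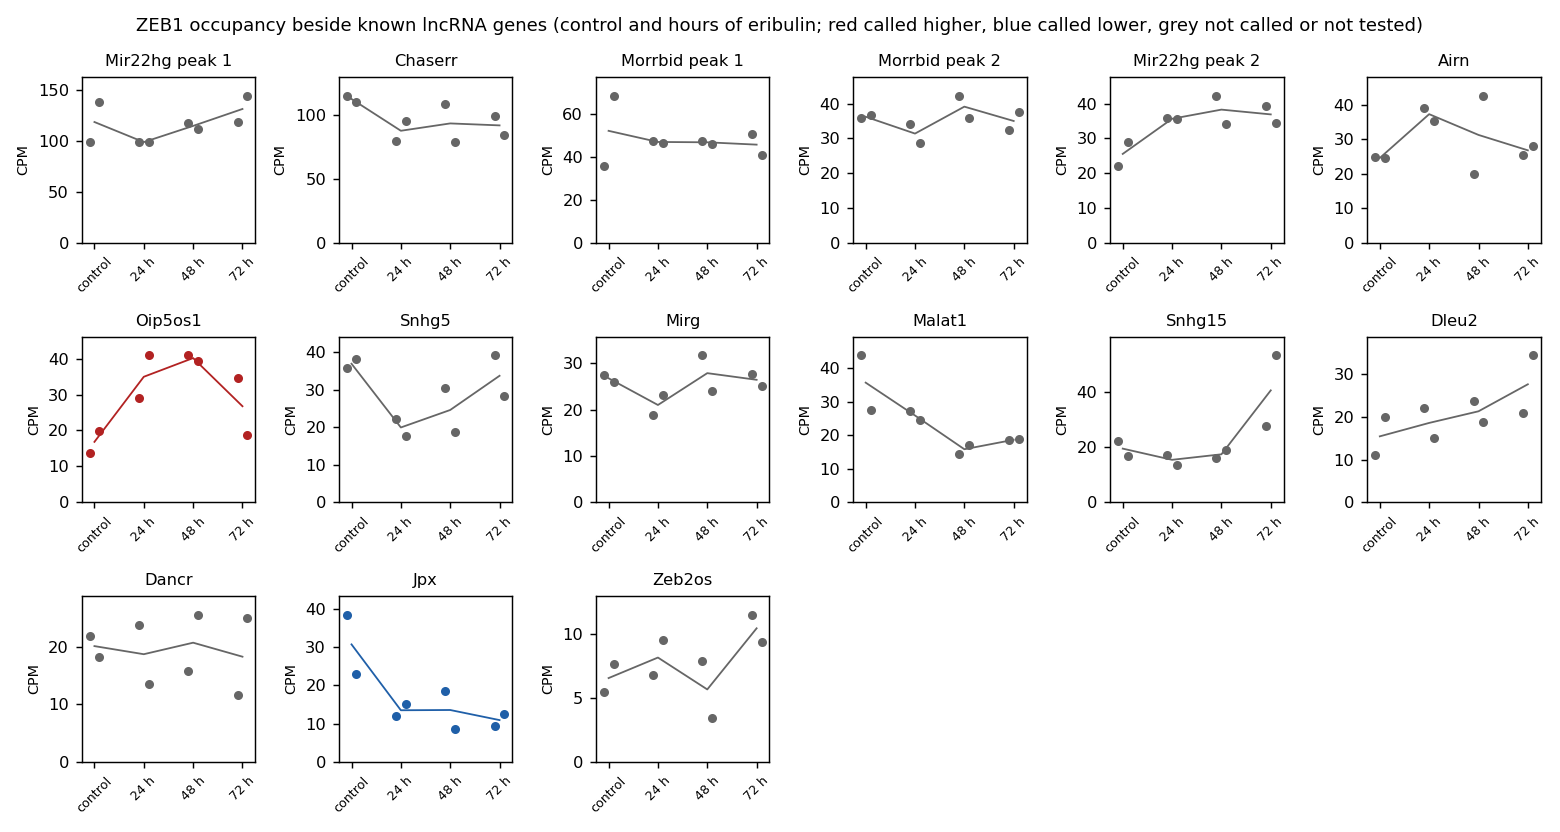
CPM in each of the 8 libraries (points) and group means (lines) at the 15 peaks beside known lncRNA genes, in control and after 24, 48 and 72 h of eribulin. Jpx (blue) was called lower and Oip5os1 (red) higher over the mean; the grey genes were not called, or, for Zeb2os, not tested.

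Some further peaks were picked out after their values were seen, and serve as description only. Of the 9 peaks at antisense genes, 8 were tested and 3 were higher, none lower, over the mean (against 8.27% and 8.53% of all tested peaks). Beside Rab10os and Oip5os1 the third was Hk1os, inside the hexokinase gene Hk1, with 44.0 and 29.0 CPM in the control libraries, 44.3 and 49.1 CPM at 24 h, 67.5 and 59.9 CPM at 48 h and 92.5 and 75.3 CPM at 72 h (log2 fold change 0.88, standard error 0.24, adjusted p = 0.00609; 0.53 and adjusted p = 0.416 without control replicate 2). Lncppara, 31.7 kb from the lipid metabolism regulator Ppara, had a log2 fold change of 0.74 (adjusted p = 0.00337; 0.36 and adjusted p = 0.491 without control replicate 2). Mirc35hg, by its name the host gene of a microRNA cluster, had a log2 fold change of 0.65 (adjusted p = 0.00334; 0.182 without control replicate 2). Below the median level, Gm41277 had 57.8 and 38.2 CPM in the control libraries, 11.9 and 9.55 CPM at 24 h, 13.2 and 15.4 CPM at 48 h and 6.93 and 9.41 CPM at 72 h, the largest fall of any of the 609 peaks (log2 fold change -2.06, standard error 0.32, adjusted p = 8.16e-07), and it stayed called without either control library. Platr14, like Platr22 named for pluripotency, fell with 30.3 and 29.0 CPM in the control libraries, 13.6 and 9.55 CPM at 24 h, 10.6 and 10.3 CPM at 48 h and 11.6 and 3.14 CPM at 72 h (log2 fold change -1.56, standard error 0.38, adjusted p = 0.00195; adjusted p = 0.0984 without control replicate 2). At Gm39984 the peak at the far end rose, with 16.5 and 4.59 CPM in the control libraries, 39.2 and 31.4 CPM at 24 h, 33.1 and 34.2 CPM at 48 h and 37.0 and 40.8 CPM at 72 h (log2 fold change 1.98, standard error 0.40, adjusted p = 1.34e-04), while the peak 255 bp from its start had a log2 fold change of 0.11 (adjusted p = 0.676). The rise was 1.11 (adjusted p = 0.235) without control replicate 2.

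Calls over the mean were also counted by gene. Of the 609 tested peaks 18.2% were called in either direction over the mean, against 16.8% of all tested peaks. The same count was not made for other genes with several peaks, and whether calls at 1 gene go together was not tested. Of the 49 genes with at least 2 tested peaks, 34 had no call over the mean, 5 had 1 peak higher, 8 had 1 peak lower, and none had peaks called in opposite directions over the mean; at a single time A630001O12Rik had opposite calls, at 72 h as above. Only Gm41404 had a pair of falls and only Gm40743, inside the protein-coding gene Tmcc3, a pair of rises. The Gm40743 peaks had log2 fold changes of 0.83 (adjusted p = 0.00701) and 0.81 (adjusted p = 0.0306), and neither was called without either control library (adjusted p from 0.0665 to 0.328).

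The counts of rises and falls were also taken by the place of the peak (over all tested peaks, 8.27% were higher and 8.53% lower over the mean). Inside protein-coding genes, 17 of 171 tested peaks were higher over the mean and 8 lower (9.94% and 4.68%). Outside them, 33 of 438 were higher and 53 lower (7.53% and 12.1%). Distal peaks showed 6.74% higher and 9.71% lower inside protein-coding genes, and 5.34% and 13.5% outside. The difference between places was not tested, and the counts moved with single libraries. Without control replicate 1, 9 were higher and 4 lower inside and 20 higher and 32 lower outside, and without control replicate 2, 2 were higher and 3 lower inside and 5 higher and 10 lower outside. The peaks whose gene start lay within 1 kb (30 higher and 33 lower of 360) and those whose gene start was farther away (10 higher and 14 lower of 128) differed little in these counts. Of the 256 tested peaks in all 4 lists, 25 were higher and 28 lower; of the 81 in the control list alone, 12 were lower and none higher, a direction that the choice by list itself favours.

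Within 1 kb of a gene for a small RNA lay 18 peaks, 12 of them beside tRNA genes, 3 beside small nuclear RNA genes and 3 beside small nucleolar RNA genes. Of the 15 that were tested, 5 were lower over the mean and none higher (against 8.53% and 8.27% of all tested peaks). At 24 h, 6 of the 15 were lower and none higher (against 4.61% and 6.44% of all). Gm40099, LOC115487798 and D230017M19Rik were the strong ones among them. The others were Gm40833 (log2 fold change -0.82, adjusted p = 0.0278; 0.288 without control replicate 1 and 0.0691 without control replicate 2) and Gm39054 (log2 fold change -1.63, adjusted p = 0.0147; 0.061 without control replicate 1 and 0.232 without control replicate 2), 67 bp and 77 bp from a tRNA gene. Genes for tRNAs are transcribed by RNA polymerase III and several families lie in clusters, so that reads there may come from near-identical copies; mapping to several copies was not tested. Without these peaks the set still held 594 tested peaks, 50 higher and 56 lower.

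The limits of the rule cut through a continuous range of distances. Just within 1 kb of an lncRNA boundary were Gm36495 at 994 bp and Gm20139 at 992 bp, and just beyond it Gm26578 at 1003 bp and Gm46361 at 1005 bp. Just over 5 kb from a protein-coding boundary were 2700012I20Rik at 5021 bp and Gm33750 at 5029 bp, and just under it Zfp286os at 4985 bp and Neat1, the RNA of paraspeckles, at 4953 bp. The Neat1 peak had 328 and 339 CPM at 72 h, against 281 and 279.8 CPM in control. The other 7 had at most 97.2 CPM in any library, and Gm20139 and Zfp286os had 0 in 1 library each.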

How the data were processed

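Per the labels' protocols, ZEB1 CUT&RUN libraries were sequenced as paired ends. Per the submitters' processing notes, bcl2fastq 2.20.0.422, cutadapt 2.4, Bowtie2 2.2.6, MACS2 2.1.1, bedtools 2.30.0 and featureCounts were used, with build GRCm38. The authors deposited raw counts per consensus peak for 8 libraries, and a peak list per group whose values are a score, a fold ratio over IgG and a −log10 q. From the counts, edgeR 4.0.16 in R 4.3.3 (TMM, filterByExpr, quasi-likelihood test with Benjamini-Hochberg adjustment over all 21192 tested peaks, adjusted p below 0.05) compared each time with control, the mean of the 3 times with control, and 72 h with 24 h, in 1 fit with 4 residual degrees of freedom. DESeq2 1.42.0, other scalings and filters, thinning, left-out libraries, summed pairs, a replicate block and other distances were alternatives.

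Peaks were placed with the RefSeq table of GRCm38.p6, by their centres. Lists were matched at an overlap of at least 1 bp. The peaks named are the 10 largest rises and 10 largest falls over the mean, and the 3 largest each way at each time and for 72 h against 24 h, among called peaks at or above the median level of all tested peaks whose groups do not overlap. The 8 highest by CPM, the 3 highest per kilobase, all at genes of the known lncRNA lists and those nearest the distance limits are named too. The peaks and lists were chosen with earlier results of these data known. Same-numbered libraries did not deviate together (correlations from -0.03 to 0.001). Replicates of control, 24 h and 72 h differed by no more than counting noise, so this cannot exclude pairing.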

Additional observations from a re-analysis of the deposited data

Results flagged for a closer look

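For 14 of the named peaks the change with eribulin at 72 h differed from that at 24 h, by edgeR's test of 72 h against 24 h, which is given on the log2 scale as 72 h minus 24 h. Gm31588, 4732419C18Rik, Gm12415, Gm46751, Gm9530 and Gm5464 are named as the largest changes in this same test, so their calls follow from the choice. The count of 14 therefore says nothing of how common such calls are. Of the 609 tested peaks 35 were called in this test (5.75%, against 4.71% of all tested peaks). 9 of the 14 were lower at 72 h. Gm41914 had a difference of -1.06 (adjusted p = 0.0137, and 0.0835 without 24 h replicate 2 and 0.3 without 72 h replicate 2). Gm40099 had a difference of -0.69 (adjusted p = 0.0119, and 0.0826 without 24 h replicate 1, 0.163 without 72 h replicate 1 and 0.0669 without 72 h replicate 2). Gm31588 had a difference of -2.31 (adjusted p = 7.36e-05, and 0.0568 without 72 h replicate 1). LOC115487798 had a difference of -0.76 (adjusted p = 0.00378, and 0.0806 without 72 h replicate 2). Gm41404 had a difference of -0.83 (adjusted p = 0.0306, and 0.0926 without 24 h replicate 1, 0.0939 without 24 h replicate 2, 0.105 without 72 h replicate 1 and 0.209 without 72 h replicate 2). 4732419C18Rik had a difference of -1.28 (adjusted p = 0.00475, and 0.154 without 72 h replicate 1). Gm12415 had a difference of -1.14 (adjusted p = 0.00688, and 0.0967 without 24 h replicate 2 and 0.159 without 72 h replicate 2). Gm30044 had a difference of -0.55 (adjusted p = 0.00777, and 0.0854 without 24 h replicate 1, 0.0816 without 72 h replicate 1 and 0.069 without 72 h replicate 2). Gm41405 had a difference of -0.60 (adjusted p = 0.0127, and 0.0704 without 24 h replicate 2 and 0.183 without 72 h replicate 2). The other 5 were higher at 72 h. Gm46751 had a difference of 1.18 (adjusted p = 0.0127, and 0.146 without 24 h replicate 2 and 0.236 without 72 h replicate 1). Gm9530 had a difference of 1.15 (adjusted p = 0.0253, and 0.234 without 24 h replicate 2, 0.0882 without 72 h replicate 1 and 0.183 without 72 h replicate 2). Gm5464 had a difference of 0.95 (adjusted p = 0.0305, and 0.0841 without 24 h replicate 1, 0.165 without 24 h replicate 2, 0.296 without 72 h replicate 1 and 0.088 without 72 h replicate 2). Gm38560 had a difference of 0.56 (adjusted p = 0.0271, and 0.19 without 24 h replicate 1, 0.0578 without 24 h replicate 2, 0.36 without 72 h replicate 1 and 0.0544 without 72 h replicate 2). Snhg15 had a difference of 1.34 (adjusted p = 0.0363, and 0.0862 without 24 h replicate 1, 0.196 without 24 h replicate 2 and 0.433 without 72 h replicate 2). Each of the 14 calls was lost when at least 1 library was left out. Gm41914, Gm40099, LOC115487798 and Gm41404 were already lower than control at 24 h and lay lower still at 72 h, while Gm30044 was higher than control at all 3 times and highest at 24 h. The control libraries do not enter this difference.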

How the results depend on the processing

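The counts of called lncRNA boundary peaks depended on single libraries, on the tool and on depth. With 1 library left out in turn, they ranged from 15 to 72 at 24 h, from 21 to 87 at 48 h, from 25 to 85 at 72 h, from 21 to 111 over the mean of the 3 times and from 6 to 42 for 72 h against 24 h. DESeq2 called 5 peaks at 24 h, 7 at 48 h, 12 at 72 h, 12 over the mean and 0 for 72 h against 24 h, where 47 had an unadjusted p below 0.05 by DESeq2 and 142 by edgeR, and DESeq2 gave no adjusted p for 403. With every library thinned to the smallest total, 25, 30, 46, 56 and 14 were called in the same order. A boundary within 0.5 kb left 413 peaks, of which 31, 41, 46, 63 and 22 were called. A boundary within 2 kb gave 1103 peaks, of which 115, 138, 133, 187 and 54 were called. At a −log10 q of at least 5 the control list held 433 of the 681 peaks, the 24 h list 331, the 48 h list 365 and the 72 h list 231. Whether the replicate numbers pair the libraries could not be told from the counts. With the replicate number as a block 63, 75, 82, 113 and 35 peaks were called. No named peak changed direction where it was called in the main fit or in the alternative. Changes of direction at named peaks called in neither were not counted. The cause of each loss was not tested, nor whether such losses are particular to these peaks. With no filter on low counts, 1 of the 72 peaks left out by the filter was called higher and 6 lower over the mean. These 72 had only 6 to 66 counts summed over the 8 libraries. The same count was not made for all 2431 consensus peaks left out by the filter, so it is no result about lncRNA boundary peaks.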
